A study of Paspalum vaginatum with 72 samples.

Results

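Libraries from leaves and roots of seashore paspalum (Paspalum vaginatum), a salt-adapted turfgrass, were searched for genes that were expressed in USA17-26 and listed at or near 0 FPKM in USA17-18. FPKM is the number of sequenced fragments scaled to the length of the gene model and to the mapped reads of the library. The 3 genes described here, of 27743 in the deposited table, were emFS5.416 (named tryptophan synthase alpha chain), emFS12.202 (named obtusifoliol 14-alpha demethylase) and emOS146.199, which has no match in any annotation column of the table. They were picked by ID because of this difference between the accessions, so that difference is described below and not tested. The study sequenced RNA from 72 libraries, which are 24 conditions of 3 libraries each: accession USA17-18, called salt-tolerant in the methods, and accession USA17-26, called salt-sensitive; root and leaf; and plants given NaCl for 8 h, 12 h, 24 h, 48 h or 5 d beside unsalted plants, which the labels place at time 0. Each accession contributed 36 libraries, 18 from leaves and 18 from roots. The series text gives 400 mM NaCl as the treatment, whereas the methods describe hydroponic plants whose NaCl was raised by 100 mM each day up to that level and control plants collected on day 5, and these sources were not reconciled here. Each replicate pooled several plants grown from stolons, and each accession is a single plant introduction, so accession stands for 1 genotype against 1 other.

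Tryptophan synthase makes the amino acid tryptophan in plastids of plants. Its alpha subunit splits indole-3-glycerol phosphate to release indole, and its beta subunit joins that indole to serine. Indole is also the start of benzoxazinoids, the defence compounds of maize and other grasses, and tryptophan is the main precursor of the hormone auxin. Obtusifoliol 14-alpha demethylase is the plant CYP51, a cytochrome P450 that removes a methyl group from the sterol precursor obtusifoliol. Its pathway leads to the membrane sterols and to the brassinosteroid hormones. The names were assigned by the authors from the closest protein in other species. Nothing in the table gives emOS146.199 a role.

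The sum of all FPKM values of a library lay between 671959 and 774486, and 17555 to 20676 genes reached 1 FPKM. The sources used here do not state the number of reads behind a value, so depth is unknown and a value of 0 cannot be turned into an upper limit. Tissue labels were checked with 15 leaf and 9 root marker genes. The summed leaf markers ranged from 1.37 to 1179 FPKM in roots and from 307 to 43228 FPKM in leaves, and the summed root markers from 16.3 to 2846 FPKM in roots and from 1.04 to 58.4 FPKM in leaves. At each of the 6 times neither sum overlapped between the tissues in either accession. The highest leaf-marker sum of a root library, 1179 FPKM, belonged to USA17-26 roots at 5 d, replicate 1.

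In USA17-18, emFS12.202 and emOS146.199 were listed at 0 FPKM in all 36 libraries. emFS5.416 was listed at 0 in 27 of the 36 libraries of USA17-18, and the other 9 held between 0.01 and 0.19 FPKM. These traces were in leaves at 8 h (replicate 1, 0.12 FPKM) and 12 h (0.04, 0.19 and 0.09 FPKM), and in roots at 8 h (0.05 and 0.04 FPKM), 12 h (0.1 FPKM), 48 h (0.01 FPKM) and 5 d (0.03 FPKM). They amounted to between 0.0266% and 0.497% of the USA17-26 mean of the same tissue and time. All 3 leaf libraries at 12 h held a trace, and at every other time and tissue at least 1 library was at 0. In USA17-26, emFS5.416 lay between 10.78 and 48.78 FPKM and emOS146.199 between 19.69 and 188.03 FPKM, with each of the 36 libraries above every library of USA17-18. emFS12.202 did not hold to that description in leaves: its USA17-26 leaves spanned 0 to 1.76 FPKM with a median of 0.28 FPKM and 2 of 18 libraries at 0, and only 19 of the 36 libraries of USA17-26 reached 1 FPKM. In USA17-26 roots it spanned 6.9 to 69.07 FPKM. The difference between the accessions for emFS12.202 was therefore seen in roots. FPKM counts aligned reads only, and whether reads of USA17-18 align to these gene models was not tested. No fold change is given against libraries listed at 0.

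**Figure D1:**
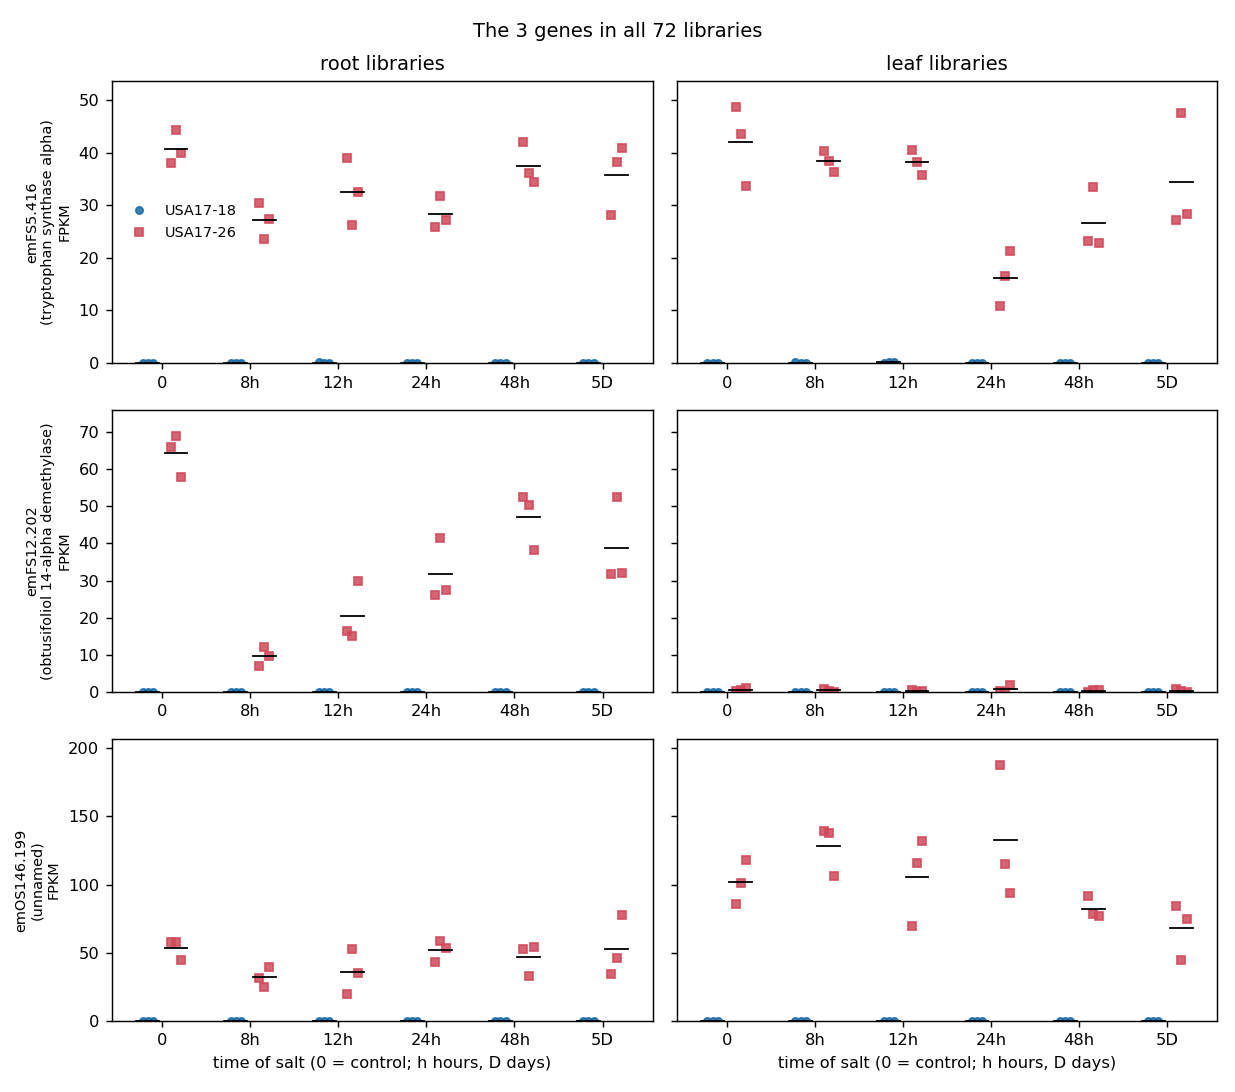
FPKM (y axis, linear, a scale of its own for each gene) of the 3 genes in all 72 libraries against time under NaCl (x axis), roots on the left and leaves on the right; circles are USA17-18, squares USA17-26, and short lines the means of 3 libraries. USA17-18 lies at or near 0 throughout, whereas emFS12.202 in USA17-26 is high in roots, with its lowest root level at 8 h, and at most 1.76 FPKM in leaves.

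emFS5.416, on chromosome 6 (40688744 to 40693426, minus strand, in the coordinates of the deposited table, for which the sources used here name no build), had close medians in the tissues of USA17-26. In roots it ranged from 23.56 to 44.43 FPKM with a median of 33.5, and in its leaves from 10.78 to 48.78 FPKM with a median of 34.7. Ordered by mean, its 12 conditions ran from leaves at time 0 (42 ± 7.68 FPKM, SD, n = 3) down to leaves at 24 h (16.2 ± 5.29 FPKM). The libraries of neighbouring conditions in that order overlapped in 10 of 11 pairs; the exception was leaves at 24 h, all of which lay below leaves at 48 h.

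Leaves at 24 h of NaCl held 10.78, 16.6 and 21.35 FPKM of emFS5.416, against 48.78, 43.65 and 33.67 FPKM at time 0. The groups did not overlap. The log2 fold change on the log2(FPKM + 1) scale was -1.35 (SE 0.20, adjusted p = 3.48e-06, and SE 0.25, adjusted p = 0.000429 in a fit of USA17-26 libraries alone), which fell short of the 1.5 that, together with an adjusted p of at most 0.05, counted as a change here. Leaves at 24 h were also the condition in which genes in general were lower: the median over all 22551 genes tested was -0.57, and 22.7% of them were called, 15.5% as lower. After the libraries were brought to a common median the value for emFS5.416 was -0.76 (adjusted p = 0.000175). Without replicate 3 at 24 h the log2 fold change was -1.56, past the fold threshold. At 8 h and 12 h the leaf means were 38.4 ± 1.98 and 38.2 ± 2.39 FPKM, against 42 ± 7.68 FPKM at time 0 (SD, n = 3 each; -0.11 and -0.12, adjusted p = 0.843 and 0.706 by limma). At 48 h the leaves held 23.24, 33.58 and 22.88 FPKM (-0.65, adjusted p = 0.0159, and 0.0654 in USA17-26 alone), and at 5 d 27.14, 47.57 and 28.43 FPKM (-0.31, adjusted p = 0.306).

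Apart from those of the fit to USA17-26 alone, the standard errors come from fits that share 1 spread estimate over both accessions. For a gene at 0 in USA17-18 that accession adds almost no spread. The p-value of a fit to USA17-26 alone is therefore given beside the main one for calls on the 3 genes and on the genes beside them, and where a gene was called at several times the highest of its p-values is given. The 5 salt times share the same time-0 libraries and are not independent of each other.

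In roots of USA17-26, emFS5.416 stood at 30.52, 23.56 and 27.31 FPKM at 8 h and at 25.96, 31.83 and 27.12 FPKM at 24 h, against 37.99, 44.43 and 39.87 FPKM at time 0. At both times every salted library was below every time-0 library. The log2 fold changes were -0.57 (SE 0.14, adjusted p = 0.0014, and 0.0124 in USA17-26 alone) and -0.51 (adjusted p = 0.00394, and 0.0244 in USA17-26 alone), both under the fold threshold. At 12 h, 48 h and 5 d they were -0.33, -0.12 and -0.20. No root response of emFS5.416 reached the fold threshold, while 12.9%, 11.4%, 11.9%, 9.36% and 12.6% of the 22194 genes tested in roots were called at 8 h, 12 h, 24 h, 48 h and 5 d. In leaves, where no response reached it either, these shares were 1.65%, 8.94%, 22.7%, 8.55% and 7.11%. Root minus leaf of emFS5.416 was -0.03 at time 0 and 0.81 at 24 h (adjusted p = 4.89e-05, and 0.00229 in USA17-26 alone), the value at 24 h beside a median of 0.27 over all genes. The salt response differed between root and leaf by at most 0.84, at 24 h (adjusted p = 0.00488, and 0.0356 in USA17-26 alone), which was not called; 11.7%, 11.8%, 15.1%, 7.58% and 9.81% of all 23933 genes were called in that comparison at the 5 times in order.

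emFS12.202, on chromosome 8 (34648352 to 34652087, plus strand), moved most under NaCl. In roots of USA17-26 the order of the 6 times by mean was time 0 (64.4 ± 5.72 FPKM), 48 h (47.1 ± 7.64), 5 d (38.8 ± 12), 24 h (31.7 ± 8.44), 12 h (20.4 ± 8.15) and 8 h (9.55 ± 2.59; SD, n = 3 each). Time 0 stood above every 48 h library and 12 h above every 8 h library, whereas 48 h and 5 d, 5 d and 24 h, and 24 h and 12 h overlapped. All 6 root conditions lay above every leaf library.

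At 8 h the 3 roots held 6.9, 12.07 and 9.67 FPKM, against 66.05, 69.07 and 58.01 FPKM at time 0. Every salted root library lay below every unsalted one. The log2 fold change was -2.66 (SE 0.21, adjusted p = 2.70e-10, and SE 0.27, adjusted p = 5.88e-06 in USA17-26 alone). At 12 h the roots held 16.45, 14.98 and 29.78 FPKM, a log2 fold change of -1.67 (adjusted p = 6.40e-07, and 0.000328 in USA17-26 alone). Without replicate 2 at 12 h that value was -1.49 and no longer called. Both were calls, and emFS12.202 was the only one of the 3 genes called in either comparison, beside 12.9% of all 22194 genes at 8 h (7.35% lower) and 11.4% at 12 h (5.78% lower).

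From 24 h on, the roots of USA17-26 were nearer to time 0. They held 26.21, 41.38 and 27.4 FPKM of emFS12.202 at 24 h (-1.03, adjusted p = 0.000299, and 0.00821 in USA17-26 alone), 52.44, 50.41 and 38.31 FPKM at 48 h (-0.45, adjusted p = 0.103), and 31.84, 52.63 and 31.9 FPKM at 5 d (-0.75, adjusted p = 0.00591, and 0.0436 in USA17-26 alone). Every salted root library at all 5 times was below the lowest time-0 library. None of these 3 later changes reached the fold threshold.

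The gene was higher in root than in leaf at all 6 times in USA17-26, with differences on the log2 scale of 5.49 at time 0, 2.95 at 8 h, 4.03 at 12 h, 4.39 at 24 h, 5.22 at 48 h and 4.90 at 5 d (SE 0.23 at each time). It could pass the filter only through roots of USA17-26, so the direction of these differences was fixed in advance. They are a description, and no p-value is given for them. Over all 23933 genes 24.2% were called between the tissues at time 0, 10.3% as higher in root, and 19.9%, 15.9%, 18.9%, 17.8% and 19.5% at the 5 later times in order. In leaves the values were too low for the gene to pass the filter, so its salt response there was not tested. Leaves held 0.06 to 0.75 FPKM at 8 h, against 0.12 to 0.94 FPKM at time 0. From such a level a fall as large as that of the roots cannot be measured on the log2(FPKM + 1) scale, so no difference between the tissues in the salt response is given for emFS12.202. In bulk tissue, fewer cells of a type and less RNA per cell cannot be told apart.

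**Figure D2:**
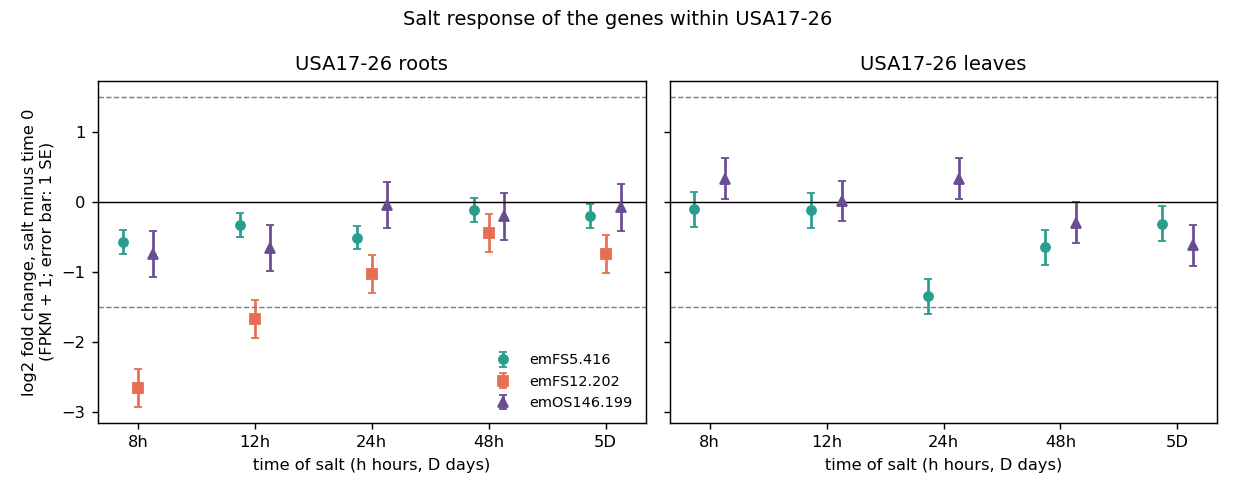
Log2 fold change on the log2(FPKM + 1) scale of NaCl against time 0 in USA17-26 (y axis) at each time (x axis) for the 3 genes, with roots on the left and leaves on the right; error bars are the SE of the fit to USA17-26 libraries alone and dashed lines mark 1.5 in each direction. Only emFS12.202 in roots at 8 h (-2.66) and 12 h (-1.67) lies past a dashed line, and emFS12.202 was not tested in leaves.

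emOS146.199, on chromosome 6 (42067910 to 42069505, minus strand, 1.37 Mb from emFS5.416 with 33 genes between them), had the highest median FPKM of the 3 genes in each tissue. It ranged from 19.69 to 77.96 FPKM in roots of USA17-26 (median 45.2) and from 44.71 to 188.03 FPKM in leaves (median 97.6). By mean, all 6 leaf conditions ranked above all 6 root conditions, from leaves at 24 h (132 ± 49.4 FPKM) to roots at 8 h (31.8 ± 7.52 FPKM), but the libraries of every pair of neighbouring conditions in that order overlapped.

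Roots at 8 h held 31.54, 24.46 and 39.49 FPKM of emOS146.199, against 139.53, 138.1 and 106.11 FPKM in leaves at 8 h. Root minus leaf was -1.99 (adjusted p = 6.07e-10, and 1.01e-05 in USA17-26 alone), a call that 19.9% of all genes shared, 11.6% as lower in root. At 12 h the difference was -1.60 (adjusted p = 2.24e-07, and 0.00025 in USA17-26 alone; 15.9% of all genes called, 9.55% as lower), which lost its call without leaf replicate 3 (-1.41) or root replicate 1 (-1.24). It was -0.92 at time 0, -1.29 at 24 h, -0.83 at 48 h and -0.39 at 5 d, none of them called. Without leaf replicate 3 at 24 h, which held 93.83 FPKM beside 188.03 and 115.35 FPKM, that value was -1.50.

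No salt response of emOS146.199 reached the fold threshold in either tissue. In roots the 8 h values above lay below all 3 time-0 libraries, which held 57.58, 57.88 and 44.55 FPKM (-0.74, adjusted p = 0.0184, and 0.0868 in USA17-26 alone). Roots at 12 h held 19.69, 52.38 and 34.76 FPKM (-0.66, adjusted p = 0.0384, and 0.134 in USA17-26 alone), which overlapped time 0. Leaves at 5 d held 83.9, 44.71 and 74.65 FPKM, against 85.65, 101.41 and 118.29 FPKM at time 0, with no overlap (-0.62, adjusted p = 0.0458, and 0.166 in USA17-26 alone). The other leaf responses lay between -0.30 and 0.33. After the libraries were brought to a common median, the leaf response at 24 h was 0.94 (adjusted p = 0.00538 by limma), under the fold threshold. The salt response differed most between root and leaf at 8 h (-1.07, adjusted p = 0.0157, and 0.0898 in USA17-26 alone), which was not called.

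The 3 genes did not share 1 time course in USA17-26. Across its 18 root libraries, which share time points and processing, Pearson's r of log2(FPKM + 1) was 0.67 between emFS5.416 and emFS12.202, 0.52 between emFS12.202 and emOS146.199 and 0.31 between emFS5.416 and emOS146.199. Across the 18 leaf libraries the values were -0.01, -0.02 and -0.39.

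The genes whose pattern was most like each of them over the 36 libraries of USA17-26 were, by the same measure, genes that USA17-18 also expressed. For emFS12.202 they were emOS169.230, named transcription factor TGAL4 (r = 0.986), emFS24.656, named a GDSL esterase/lipase (0.983), and emOS169.136, named an LRR receptor-like kinase (0.983). These values rest mostly on the difference between tissues; within roots alone r was 0.91, 0.87 and 0.84, and within leaves 0.13, 0.25 and 0.30 (n = 18 each). Median FPKM of emFS24.656 was 67 in roots of USA17-18 and 89.6 in roots of USA17-26, and that of emOS169.230 was 27.5 in roots of USA17-18 and 22.4 in roots of USA17-26, whereas emFS12.202 was listed at 0 in the roots of USA17-18. For emFS5.416 the closest were emFS28.35, whose best match is a formin-binding protein (0.943), emOS55.230, named protein root UVB sensitive 3 (0.938), and the unnamed emOS144.841 (0.937). For emOS146.199 they were emFS10.133, named thioredoxin H-type 2 (0.923), the unnamed emFS4.641 (0.918) and emOS109.125, named an F-box protein (0.898).

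Several genes beside emFS12.202 and beside emOS146.199 were also listed at or near 0 in USA17-18, and 1 gene near emFS5.416 was. Where USA17-18 stayed near 0 a gene could enter the tests only through USA17-26, so those genes are given by their levels, with no test. Of the 5 annotated genes on each side of emFS12.202, emFS12.207, emFS12.208 and emFS12.209 were listed at 0 in all 36 libraries of USA17-18 and reached 36.21, 20.97 and 63.97 FPKM in roots of USA17-26.

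The neighbour emFS12.212, named a pentatricopeptide repeat protein, was expressed in both accessions, with root medians of 0.93 FPKM in USA17-18 and 3.75 FPKM in USA17-26 and leaf medians of 1.05 FPKM in USA17-18 and 4.46 FPKM in USA17-26. Its difference between USA17-18 and USA17-26 lay between -1.59 and -0.80 on the log2 scale over both tissues and the 6 times, with a highest adjusted p of 0.00827. It was called lower in USA17-18 in roots at time 0 (1.97% of all genes) and in leaves at time 0, 24 h and 48 h (1.22%, 0.843% and 0.758% of all genes), and its fold was under the threshold at the other times. Another neighbour, emFS12.189, was called higher in leaves of USA17-18 at 8 h (1.77, adjusted p = 0.00147; 3.12% of all genes) and at no other time.

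Beside emOS146.199, emOS146.190, emOS146.193 and emOS146.200 were listed at 0 in all 36 libraries of USA17-18 and emOS146.192 in 35 of them. They reached 12.88, 42.33, 7.77 and 13.71 FPKM in leaves of USA17-26. Near emFS5.416, emFS5.375 spanned 0 to 0.15 FPKM in USA17-18 and 0.8 to 5.31 FPKM in USA17-26. On its other side emOS52.60, emOS52.59 and emOS52.58 had low root medians, 0.095 to 1.65 FPKM in USA17-18 and 0.38 to 1.83 FPKM in USA17-26. The highest root value of emOS52.58 was 23.03 FPKM in USA17-18 and 4.97 FPKM in USA17-26. The next gene, emOS52.57, a C2 domain protein, had root medians of 54.5 FPKM in USA17-18 and 92.6 FPKM in USA17-26. The distances from emFS5.416 to the next gene model were 44.6 kb and 412.3 kb.

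Stretches of adjacent genes were then counted, by a definition chosen after the values had been seen: every gene under 0.05 FPKM in all 36 libraries of 1 accession, and at least 3 of them reaching 1 FPKM in some library of the other. USA17-18 had 2 such stretches in the whole table, and they were those of emOS146.199 and emFS12.202. The first held 7 genes over 251.8 kb of chromosome 6 (42055902 to 42307659), 6 of which reached 1 FPKM in USA17-26. The second held 5 genes over 198.5 kb of chromosome 8 (34648352 to 34846868), 4 of which did. In the opposite direction, with USA17-26 low, there were 8 stretches, the longest of 8 genes.

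**Figure D3:**
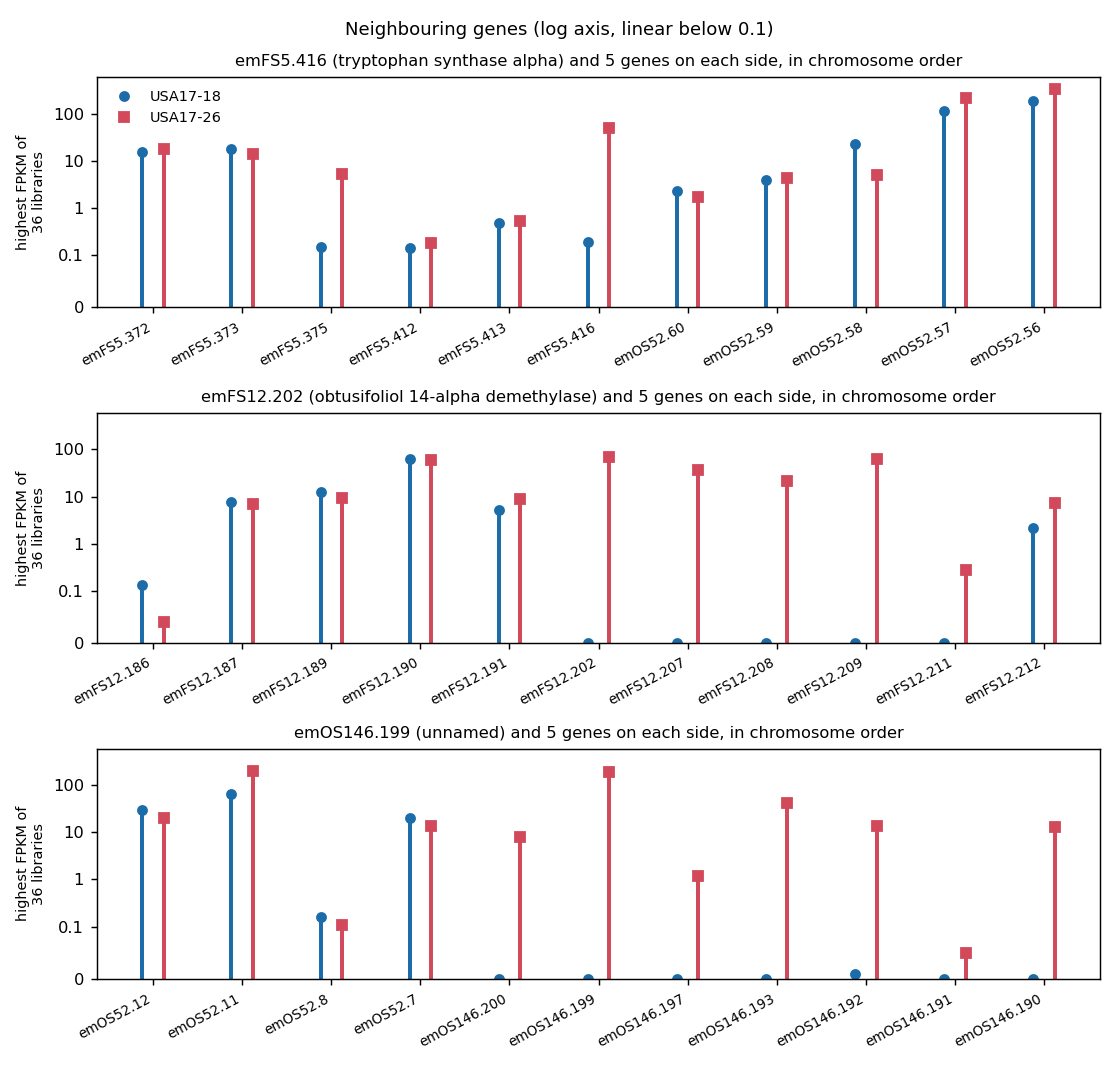
Highest FPKM over the 36 libraries of each accession (y axis, log scale, linear below 0.1) for each of the 3 genes and the 5 annotated genes on either side in chromosome order (x axis); circles are USA17-18 and squares USA17-26. The circles lie at 0 from emFS12.202 to emFS12.211 and at or below 0.01 FPKM from emOS146.200 to emOS146.190. Of the genes beside emFS5.416, emFS5.375 is far lower in USA17-18 (0.15 FPKM, and 5.31 FPKM in USA17-26). In contrast, emOS52.58 is higher in USA17-18 (23.03 FPKM, and 4.97 FPKM in USA17-26).

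On chromosome 8 the stretch ran from emFS12.202 over emFS12.207 (no name; its listed domain is of the alpha/beta hydrolase family), emFS12.208 (named cytosolic sulfotransferase 5, an enzyme that adds sulfate groups) and emFS12.209 (named cytochrome P450 711A1, which in Arabidopsis oxidises carlactone in the synthesis of strigolactones, root-borne hormones) to emFS12.211, which stayed at or under 0.27 FPKM. All of them were listed at 0 in the 36 libraries of USA17-18. Like emFS12.202, they were low in leaves of USA17-26: emFS12.209 did not pass 0.23 FPKM there, emFS12.208 did not pass 0.09 FPKM and emFS12.207 did not pass 0.84 FPKM.

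emFS12.209 held 39.54, 63.97 and 56.54 FPKM in unsalted roots of USA17-26. Under NaCl its roots held 1.53, 0.88 and 3.28 FPKM at 8 h, 8.04, 0.7 and 20.71 FPKM at 12 h, 1.01, 1.31 and 1.28 FPKM at 24 h, 1.17, 9.68 and 3.25 FPKM at 48 h, and 9.59, 14.35 and 1.78 FPKM at 5 d. No salted library reached the lowest unsalted one. It was called lower at all 5 times, with log2 fold changes of -4.29 at 8 h (adjusted p = 1.81e-06, and 0.000722 in USA17-26 alone) and -2.80 at 5 d, the time of its highest p (adjusted p = 0.000536, and 0.0142 in USA17-26 alone). Over all genes in roots 7.35%, 5.78%, 7.39%, 5.21% and 4.96% were called lower at the 5 times in order.

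emFS12.207 and emFS12.208 were called lower at all 5 times too, with their highest p at 5 d. emFS12.207 held 4.76, 5.62 and 0.08 FPKM at 5 d, against 7.65, 36.21 and 30.78 FPKM in unsalted roots (-2.65 on the log2 scale, adjusted p = 0.000275, and 0.0103 in USA17-26 alone). emFS12.208 held 1.42, 2.41 and 0.1 FPKM at 5 d, against 7.3, 20.97 and 20.21 FPKM in unsalted roots (-2.91, adjusted p = 1.01e-07, and 0.000191 in USA17-26 alone). Replicate 1 was the lowest unsalted root library for all 3 of these neighbours. Their courses differed from that of emFS12.202 at 48 h, when emFS12.202 was at -0.45 while emFS12.207, emFS12.208 and emFS12.209 were at -3.97, -3.86 and -3.53; the difference between genes was not tested. Over the 18 roots r with emFS12.202 was 0.56 for emFS12.207, 0.57 for emFS12.208 and 0.59 for emFS12.209, against 0.96 between emFS12.207 and emFS12.209.

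**Figure D4:**
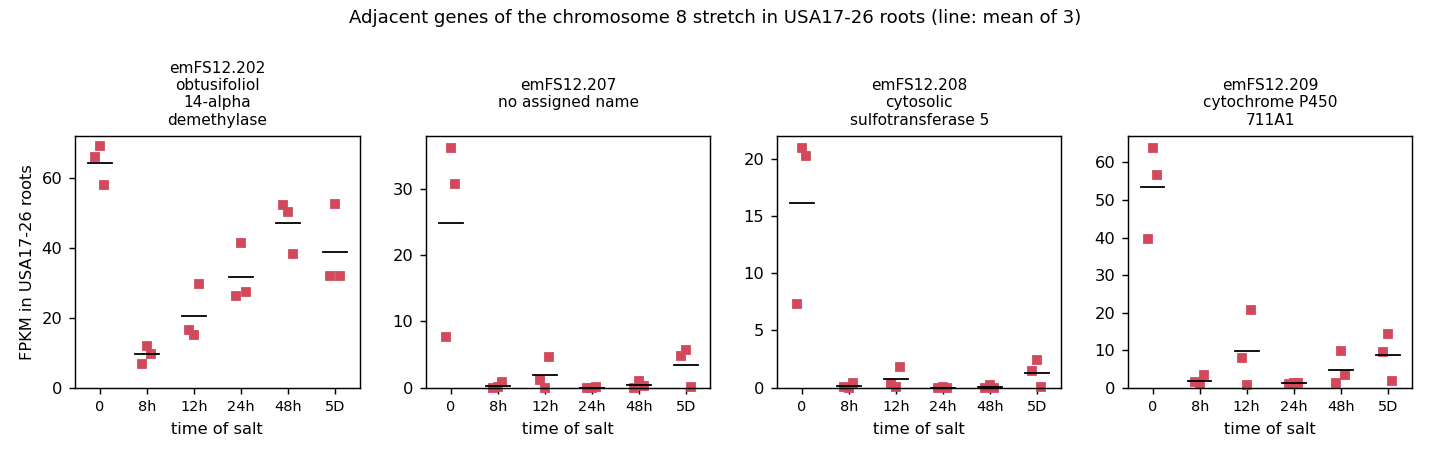
FPKM of emFS12.202, emFS12.207, emFS12.208 and emFS12.209 in each root library of USA17-26 (y axis, a scale of its own for each gene) against time under NaCl (x axis); short lines are means of 3 libraries. All 4 genes are lower at 8 h than at time 0; emFS12.202 is back at 38.31 to 52.44 FPKM at 48 h, whereas no library of the other genes passes 9.68 FPKM then.

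On chromosome 6 the neighbours of emOS146.199 were lower than it in USA17-26. Leaves of USA17-26 held 2.89 to 7.77 FPKM of emOS146.200, 3.77 to 42.33 of emOS146.193, 1.87 to 13.71 of emOS146.192 and 1.65 to 12.88 of emOS146.190. None of these has a name in the table. A putative disease resistance gene, emOS146.197, reached 1.2 FPKM and an F-box gene, emOS146.191, only 0.05 FPKM. By its levels emOS146.190 was lower in roots of USA17-26, at most 0.58 FPKM, than in the leaves. It could pass the filter only through those leaves, so that direction was fixed in advance and no test of it is given. The salt responses within the stretch went both ways in leaves, though emOS146.199 itself had none that was called: emOS146.190 was called lower at 24 h (-1.87 on the log2 scale, adjusted p = 2.02e-08, and 5.07e-05 in USA17-26 alone), and emOS146.193 rose by 1.65 at 5 d (adjusted p = 0.000253, and 0.0103 in USA17-26 alone). In leaves at 24 h the median over all genes was -0.57 and 15.5% of them were called lower, and after the libraries were brought to a common median emOS146.190 was at -1.40 and no longer called, while emOS146.193 at 5 d was at 1.83.

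Other genes with the same assigned names as emFS5.416 and emFS12.202 were expressed in USA17-18. The sources used here do not say how reads that fit more than 1 gene of a name were counted, so the split between such genes is uncertain. emFS27.639 (chromosome 2, 42860607 to 42864050) and emOS99.525 (chromosome 1, 3456857 to 3462355) are also named tryptophan synthase alpha chain. emFS27.639 had medians of 24.2 FPKM in roots of USA17-18 and 24.5 in roots of USA17-26, and emOS99.525 of 19.1 FPKM in roots of USA17-18 and 20.1 in roots of USA17-26. Neither was called between the accessions at any of the 6 times in either tissue; the largest differences with an adjusted p of at most 0.05 were in leaves at 24 h, where emFS27.639 was higher in USA17-18 by 0.47 (adjusted p = 0.0013) and emOS99.525 by 0.70 (adjusted p = 0.00842), beside 2.29% of all genes called.

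The 3 alpha-chain genes together summed to a median of 41.5 FPKM in roots of USA17-18 (30.9 to 64.6) and 77.6 FPKM in roots of USA17-26 (56.2 to 104). In leaves the sums were 50.2 FPKM in USA17-18 (34.6 to 62.5) and 78.8 FPKM in USA17-26 (49.5 to 96.8). The ranges overlapped in both tissues. emFS5.416 supplied a median of 42.6% of the sum in roots of USA17-26 (37.5% to 51.6%) and 42.7% in leaves (21.8% to 56.1%), and at most 0.377% in any library of USA17-18. emOS105.174, named tryptophan synthase beta chain 2, the partner subunit, was not called between the accessions at any time and had root medians of 125 FPKM in USA17-18 and 161 FPKM in USA17-26.

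emOS99.524 lies next to emOS99.525 and is named indole-3-glycerol phosphate lyase, an enzyme that in maize releases free indole from the same substrate. In leaves its difference between USA17-18 and USA17-26 changed direction with time, 4.14 at 8 h (adjusted p = 0.000565), -5.37 at 12 h (adjusted p = 3.21e-05) and 3.35 at 48 h (adjusted p = 0.00921), beside 5.41%, 2.33% and 1.69% of all genes called. It reached 100.59 FPKM in leaves of USA17-18 and 284.56 FPKM in leaves of USA17-26.

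For obtusifoliol 14-alpha demethylase the main other gene was emFS15.92 (chromosome 5, 20746339 to 20750371), with root medians of 25 FPKM in USA17-18 and 26.6 FPKM in USA17-26 and leaf medians of 31 FPKM in USA17-18 and 33 FPKM in USA17-26. It was not called between the accessions at any time (root difference at time 0 of -0.14, SE 0.19, adjusted p = 0.75). Together with emFS12.202 it summed to a median of 25 FPKM in roots of USA17-18 and 60.8 FPKM in roots of USA17-26, of which emFS12.202 supplied a median of 55.6% (21.4% to 72.2%). In leaves the same sums were 31 FPKM in USA17-18 and 33.7 FPKM in USA17-26.

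A further 3 short models carry the name. emOS91.1398 and emOS91.1399, adjacent on chromosome 2, were at or under 2.06 FPKM in roots and rose in leaves of USA17-26 at 5 d by 3.12 and 2.94 on the log2 scale (adjusted p = 0.000527 and 0.000939; 7.11% of all genes called). Both were also called higher in leaves of USA17-26 at 24 h and 48 h (7.21% and 4.93% of all genes). In leaves of USA17-18 both were called higher at 24 h (1.99 and 1.93) and 48 h (1.78 and 1.76), beside 7.6% and 6.67% of all genes. At 5 d they were at 1.58 and 1.52 there, not called. emOS93.73 reached 65.83 FPKM in roots of USA17-18 and was called higher there than in USA17-26 at 8 h (3.93, adjusted p = 0.000583; 2.47% of all genes called). With all 5 models, the root sums had medians of 25.9 FPKM in USA17-18 (18.5 to 92.7) and 62.7 FPKM in USA17-26 (32.1 to 96.6).

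**Figure D5:**
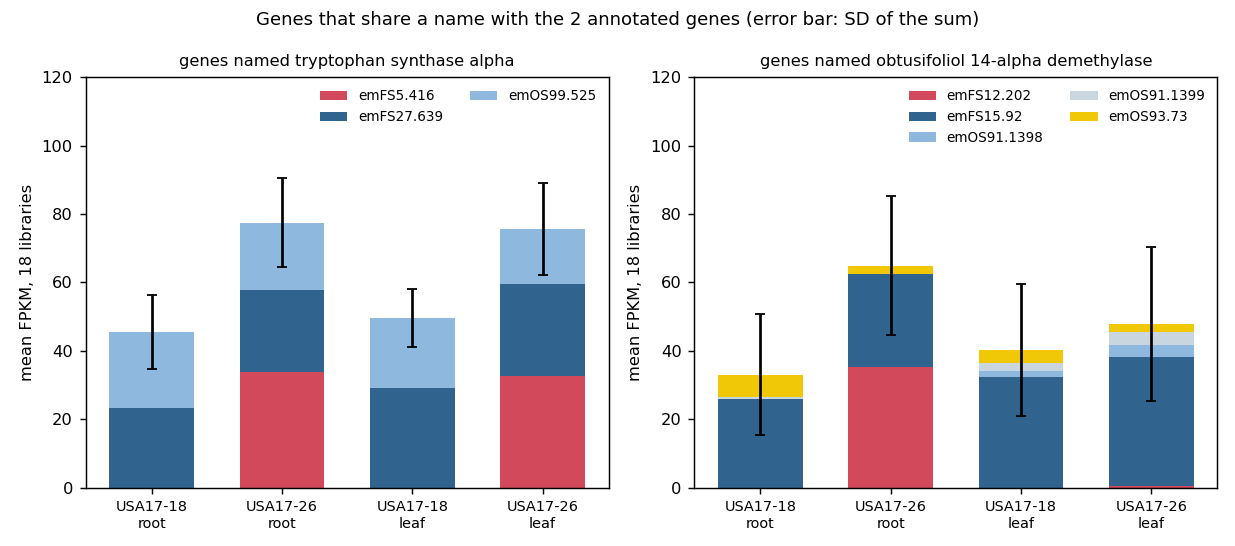
Mean FPKM over 18 libraries (y axis, stacked bars from 0) of the 3 genes named tryptophan synthase alpha chain and the 5 named obtusifoliol 14-alpha demethylase, in USA17-18 and USA17-26 roots and leaves; the error bar is the SD of the sum over the 18 libraries. emFS5.416 and emFS12.202 add nothing visible to the bars of USA17-18, while in roots of USA17-26 they average 33.7 and 35.3 FPKM.

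The rest of the 2 pathways was compared between the accessions through 133 genes in 5 lists made from words of the assigned names, with the 3 genes left out. In roots at time 0, 5 of the 104 tested were called, each of them lower in USA17-18 (4.81%, beside 1.97% of all genes called lower). The lists as such were not tested. All 5 averaged under 1 FPKM in the unsalted roots of USA17-18, and such a gene can pass the filter through USA17-26 alone. The shared direction of these calls is therefore not a result about the pathways. The genes called were 3 of indole use (emOS163.272, -3.73, emOS163.273, -3.38, and emFS1.1077, -2.96), named as monooxygenases of benzoxazinoid synthesis. The others were the shikimate pathway gene emFS12.60 (-3.01) and the sterol gene emOS114.353, named cycloeucalenol cycloisomerase (-1.99). Their unsalted root libraries of USA17-26 were widely spread, at 5.02 to 34.02, 4.04 to 35.35, 1.46 to 14.23, 3.0 to 19.87 and 0.57 to 5.51 FPKM in that order. emFS1.1077 was listed at 0 in all 3 unsalted root libraries of USA17-18 and averaged 9.09 ± 6.74 FPKM (SD, n = 3) in those of USA17-26. Cycloeucalenol cycloisomerase makes obtusifoliol, the substrate of the enzyme that emFS12.202 is named for; emOS114.353 averaged 0.01 FPKM in unsalted roots of USA17-18 and 3.82 ± 2.81 FPKM in those of USA17-26.

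In leaves at time 0, USA17-18 was called lower in 2 of 109 (1.83%, beside 1.22% of all genes), the sterol genes emOS130.13 (-2.32) and emOS124.9 (-1.91). At 5 d it was called lower in 1 of 109 in leaves (0.917%, beside 0.9%), emFS0.357, named indole-3-glycerol phosphate synthase (-1.95), and in 1 of 104 in roots (0.962%, beside 1.11%), emFS27.486, a DET2 steroid reductase of brassinosteroid synthesis (-1.65).

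Under NaCl at 5 d the roots of USA17-26, in which emFS12.202 was at -0.75, had 5 sterol genes called higher and 1 lower of 35 tested (7.67% and 4.96% of all genes). Among them were emFS18.923, a farnesyl pyrophosphate synthase (2.08), and emOS56.173, a cycloartenol methyltransferase (1.96), while emOS130.13 was lower (-3.94). The list's median was 0.55, beside 0.03 over all genes. Of 23 genes of indole use in the same roots 3 rose and 4 fell, and the largest fall was that of emFS4.1708, named the DIBOA-glucoside dioxygenase BX6 (-3.53, 22.9 ± 8.6 FPKM at 5 d against 265 ± 47.2 FPKM at time 0). In leaves of USA17-26 at 5 d, 3 of 18 tryptophan synthesis genes rose (3.82% of all genes), led by emOS99.524 (3.11), while emFS5.416 was at -0.31. None of 16 tryptophan synthesis genes was called by limma in roots, where 9 had an unadjusted p under 0.05. Part of this was also seen in USA17-18 at 5 d. In its roots 1 sterol gene was called higher, emOS56.173 (2.19), and 1 lower, emOS130.13 (-2.28), beside 2.99% and 2.57% of all genes. Of its 23 genes of indole use in roots 1 rose and 1 fell, emFS4.1708 (-2.88). In its leaves 1 of 18 tryptophan synthesis genes was called, emOS99.524 (3.32), beside 4.73% of all genes called higher. A count of 1 in 18 is near that share and is no result about the list.

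In leaves of USA17-26 at 5 d, 2 of 22 genes of indole use rose and 6 fell (3.82% and 3.29% of all genes), and the list's median was -0.84, beside -0.15 over all genes. The largest fall was that of emOS65.128, named indole-2-monooxygenase (-2.92, 5.92 ± 4.47 FPKM at 5 d against 53.4 ± 32.3 FPKM at time 0, SD, n = 3 each), and the largest rise that of emOS114.578, named 3-hydroxyindolin-2-one monooxygenase (1.95, 60.5 ± 26.1 FPKM against 13.8 ± 1.49 FPKM). The remaining lists at 5 d in USA17-26 had 1 higher and 1 lower of 17 shikimate genes in roots and 1 lower of 17 in leaves, 2 higher of 13 brassinosteroid genes in roots, 2 higher and 1 lower of 14 in leaves, and 5 higher of 38 sterol genes in leaves. Leaves of USA17-18 at 5 d had 1 higher and 6 lower of 22 genes of indole use (4.73% and 4.6% of all genes). That list's median was -0.87, beside 0.05 over all genes. Of 38 sterol genes 8 were called higher and 1 lower in the same leaves.

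Few genes in the table had the pattern that chose these 3. With a limit of 1 FPKM, 10 of 27743 genes (0.036%) were under it in every library of USA17-18 and at or over it in every library of USA17-26. They included emFS5.416 and emOS146.199, with emOS146.199 having the highest median, 63.7 FPKM, and emFS5.416 the next, 34 FPKM. emFS12.202 was not among them because of its leaves. In the opposite direction there were 25 (0.0901%). Just inside the limit stood emOS72.676, named protein NPGR2, with a lowest value of 1.0 FPKM in USA17-26, and emFS12.696, with a highest value of 0.89 FPKM in USA17-18. In roots alone 16 genes had the pattern, and emOS146.199, emFS5.416 and emFS12.202 ranked 1, 2 and 3 among them by median FPKM. These ranks, and the order of medians given above, rest on the values for which the 3 genes were picked and are a description only. All 36 libraries of USA17-18 were at 0 for 20 genes that reached 1 FPKM in some library of USA17-26, and all 36 of USA17-26 were at 0 for 79 genes that reached 1 FPKM in USA17-18.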

How the data were processed

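Total RNA of leaves and roots was sequenced on an Illumina instrument. Per the labels and the study's methods, Trimmomatic 0.32 served the authors for trimming and HISAT2 2.1.0 for alignment; the sources used here name no genome build, counter, strand setting or depth. The authors deposited FPKM values with 2 decimals, 1 column per library, which the methods call RPKM; 0 value columns were left out. Low values were examined for steps of whole reads and gave no stable depth, so no count test was run. Replicates are described as biological, and p-values measure only the spread between these libraries.

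log2(FPKM + 1) was fitted with limma 3.58.1 (R 4.3.3, trend = TRUE, two-sided tests, moderated across genes) on the 36 libraries of each tissue, and on all 72 for root against leaf and for the difference between tissues in the salt response. Genes at 1 FPKM or more in at least 3 libraries were tested, with Benjamini-Hochberg adjustment over the whole set. Calls required a log2 fold change of 1.5 or more in either direction and an adjusted p no higher than 0.05, the thresholds of the study's methods. The pseudocount understates the fold changes of low genes. Tables and figures used Python 3.11.15, pandas 2.3.3, numpy 2.4.6 and matplotlib 3.10.9. The procedure was tested on simulated data.

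The genes, lists, tests and tissue markers were chosen with earlier results of these data known. Genes named are the 3 genes, those sharing their assigned names, the 5 annotated genes on each side, up to 4 called genes per list and comparison by size of change, and the 3 genes with the highest correlation; genes of stretches, of the FPKM pattern and the strigolactone list were added after values had been seen. Alternatives were pseudocounts of 0.1 and 5, testing all genes, testing genes that average 5 FPKM, scaling by median ratios, a replicate block, leaving out each library, and fits to fewer libraries; the fit to USA17-26 alone over both tissues was chosen after seeing the data. The labels place unsalted plants at time 0 and the methods on day 5.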

Additional observations from a re-analysis of the deposited data

How the results depend on the processing

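No value that was called, with all libraries or under the alternative, changed sign. Of 792 alternative values for the salt responses and tissue differences of the 3 genes, 22 had the other sign, all of results between -0.21 and 0.12 that were not called, such as root minus leaf of emFS5.416 at time 0 (-0.03). Counts of pathway genes called between the accessions moved with the pseudocount: with 5 they were 1 in leaves and 3 in roots at time 0, and 0 by limma in leaves and in roots at 5 d (12 and 15 genes at an unadjusted p under 0.05), and with 0.1 they were 8 in roots at time 0 and 2 in roots at 5 d. A pseudocount acts on the calls of all genes, and their shares at 5 and 0.1 are not given here. The shifts in these counts are therefore no result about the pathways. For single genes, a pseudocount of 5 took emFS12.202 below the fold threshold in roots at 12 h (-1.49) and in root minus leaf at 8 h (1.43), and emOS146.199 in root minus leaf at 12 h (-1.48). Median-ratio scaling did the latter as well (-1.47), and put emOS146.199 past it at 24 h (-1.75).

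Leaving out each library in turn, the 5 d responses spanned -0.99 to -0.63 for emFS12.202 in roots, -0.56 to -0.17 in leaves and -0.30 to -0.04 in roots for emFS5.416, and -0.79 to -0.35 in leaves and -0.40 to 0.17 in roots for emOS146.199. Root minus leaf at time 0 spanned 5.31 to 5.70, -0.18 to 0.08 and -1.03 to -0.80 for emFS12.202, emFS5.416 and emOS146.199.

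Replicate numbers did not pair the libraries: correlations of same-numbered deviations ran from -0.477 to 0.179, and 1 of 9 libraries matched its own number best. With the replicate block emFS12.202 in roots at 5 d stayed at -0.75 (adjusted p = 0.00636), emOS146.199 in leaves at 5 d had an adjusted p of 0.0682, and no call changed. Over all genes the median log2 change was -0.57 at 24 h, -0.29 at 48 h and -0.15 at 5 d in leaves of USA17-26 and -0.17 at 8 h and 24 h in its roots, so small changes at those times carry that shift. Depth is unknown, so values near 0 have no stated precision.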

Other observations

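Because emFS12.209 carries the name of a strigolactone enzyme, a list of 10 genes named for that pathway was made after its values had been seen. In roots at time 0, emFS12.209 was listed at 0 in USA17-18, and USA17-18 was called lower than USA17-26 in 3 of the other 8 tested (1.97% of all genes). They were emFS10.38, named beta-carotene isomerase D27, the first enzyme of the pathway (2.41 ± 0.911 FPKM in USA17-18 and 44.8 ± 32.3 FPKM in USA17-26, SD, n = 3 each; -3.35), emFS18.1179, named carotenoid cleavage dioxygenase 8 (-2.80), and emFS18.912, another gene named cytochrome P450 711A1 (15 ± 2.67 FPKM in USA17-18 and 54.5 ± 14.8 FPKM in USA17-26; -1.77). In roots of USA17-26 at 5 d of NaCl 5 of the 9 were called lower than at time 0 (4.96% of all genes), among them emFS18.912 (-3.47) and emFS12.209 (-2.80). Unlike the count at time 0, this count includes emFS12.209, the gene that prompted the list. In roots of USA17-18 at 5 d, emFS18.912 was also called lower than at time 0 (-2.62). It was the only 1 of the 9 called there (2.57% of all genes called lower). Between the accessions in roots at 5 d, none of the genes other than emFS12.209 was called (2.42% of all genes called). The list was not chosen independently of these values.

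The gene IDs on chromosome 6 change prefix, from emOS52 to emOS146, just before emOS146.200, which is the first gene of the stretch at 0 in USA17-18, and likewise from emFS5 to emOS52 just after emFS5.416. The sources used here do not explain the prefixes.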
